A study of Mus musculus with 30 samples.

Results

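The 50 genes described here act in G2 and mitosis, the last part of the cell cycle, and were followed through a time course of cycloheximide in 2 mouse cell lines. They were taken from a given list of mouse symbols, matched to the Ensembl identifiers of the deposited count matrix with the version suffix removed. All 50 were found among the 57186 gene rows and passed the filter on low counts in both lines, and they fall into 11 roles, from the cyclins and CDK1 to the transcription factors of the program. RNA of 30 libraries was counted, 3 replicates (A, B and C) for each line at 0, 1, 2, 5 and 48 h of cycloheximide, a drug that blocks translation elongation. NIH/3T3 is an established fibroblast line, grown in DMEM with serum, and CGR8 is a mouse embryonic stem cell line, grown in N2B27 with 2i and LIF, inhibitors and a cytokine that hold the cells in a naive state. Every library of both lines carried the ROSA26 SLT knock-in, so no group was without it. The labels give 0.1 µg/mL of cycloheximide for all libraries, those named 0 h included, and the 0 h libraries served as the control here. Nothing in the labels says that the replicates were separate cultures, so p-values measure only the spread between these samples, which may be technical.

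A cell enters mitosis when CDK1, bound to a cyclin B and activated by CDC25 phosphatases, overcomes the kinases that restrain it. Aurora and Polo kinases, kinesin motors and the kinetochore then build the spindle and attach the chromosomes, and the spindle checkpoint holds the anaphase-promoting complex (APC/C) until attachment is complete. Most of these genes are transcribed late in the cycle, driven by FOXM1 and MYBL2 and silenced earlier by the DREAM complex, and many of their proteins, cyclin B and securin among them, are destroyed at the end of each mitosis.

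The DREAM complex and its MuvB core reach these genes through the cell cycle homology region, whose core is TTTGAA, and the NF-Y factor binds CCAAT boxes beside it. RefSeq promoter windows on GRCm38.p6, from 250 bases before to 50 bases after the start of the gene, were at hand for 43 of the 50 genes (matched by symbol) and were searched on both strands for TTTGAA and for CCAAT. The motifs can share a letter where their ends meet, and each was counted by itself. TTTGAA was in 29 of the 43 windows (67.4%), against 20.2% of all 27025 gene windows of that length. CCAAT was in 31 (72.1%), against 41.1% of all windows, and both motifs were in 25 (58.1%), against 8.97%. The last 120 bases before the start are shown for 6 genes whose responses are described below, with matches to either motif on either strand in capitals, so that the promoters can be set beside the values. Cdk1, Ube2c, Cdc20 and Espl1 hold the motifs, whereas the windows of Mad2l1 and Mybl2 hold neither. The 6 were chosen after their values were seen, and a match is a description of letters, not a bound site.
Cdk1 (chr10:69352913-69353032, minus strand): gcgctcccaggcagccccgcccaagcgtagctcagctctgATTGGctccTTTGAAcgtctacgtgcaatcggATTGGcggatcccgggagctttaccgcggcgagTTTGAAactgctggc
Ube2c (chr2:164769809-164769928, plus strand): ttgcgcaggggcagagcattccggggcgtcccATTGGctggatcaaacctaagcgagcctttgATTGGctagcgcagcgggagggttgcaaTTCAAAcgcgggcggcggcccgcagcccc
Cdc20 (chr4:118437344-118437463, minus strand): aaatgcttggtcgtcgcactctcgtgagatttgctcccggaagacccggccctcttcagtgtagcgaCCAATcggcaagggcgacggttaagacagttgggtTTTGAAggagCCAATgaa
Espl1 (chr15:102296173-102296292, plus strand): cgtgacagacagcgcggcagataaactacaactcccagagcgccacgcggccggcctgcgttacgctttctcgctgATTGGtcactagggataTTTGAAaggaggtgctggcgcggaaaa
Mad2l1 (chr6:66535101-66535220, plus strand): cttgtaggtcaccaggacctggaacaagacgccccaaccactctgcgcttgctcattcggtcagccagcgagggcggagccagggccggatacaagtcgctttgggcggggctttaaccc
Mybl2 (chr2:163054515-163054634, plus strand): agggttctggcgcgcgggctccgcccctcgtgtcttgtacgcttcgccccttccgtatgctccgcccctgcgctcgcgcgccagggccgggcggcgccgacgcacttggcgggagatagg

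The libraries held 18.2 to 30.5 M counts (mean 24.2, SD 2.95, n = 30). Levels are given as CPM, the share of a library's counts on a common scale after TMM normalization within a line. Markers matched the labelled cell types: the 6 stem cell markers stayed at or below 0.383 CPM in NIH/3T3 and at or above 375 CPM in CGR8, and 4 of 6 fibroblast markers were over 1 CPM in all NIH/3T3 libraries, with Thy1 and Postn under it. In CGR8, 5 of these 6 were under 1 CPM, Thy1 being the exception. Of 10 markers of differentiated lineages, the summed level in CGR8 was 60.6 to 63.5 CPM at 0 h and 24.5 to 26.7 CPM at 48 h. Among the marker genes, 3 of fibroblasts in NIH/3T3 were lower after 5 h, 3 were higher after 48 h, and in CGR8 5 of stem cells were higher and 1 lower at 5 h; their part in the results below was not tested. Replicates differed by more than counting error, and the log2 deviation of a library from the other 0 h libraries of its line ran with coding length, with a sign that could differ between replicates. Over 11138 genes its Spearman correlation with coding length was 0.343, -0.409 and 0.344 in CGR8 0 h A, B and C. The 3 deviations at 0 h sum to 0 for every gene, so their signs are tied to each other. This correlation was 0.284, 0.384 and -0.587 in NIH/3T3 1 h A, B and C, which are not tied in this way. It was negative in all 12 libraries of 2 and 5 h, from -0.605 to -0.172, and positive in all 6 libraries of 48 h, from 0.0951 to 0.334. Results are therefore also given with the trend over coding length removed from each library, a setting chosen after the data were seen.

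After 5 h in NIH/3T3, 28 of the 50 genes had fallen and 4 had risen. Of all genes tested, 51.0% were called there and 27.1% were lower. The fall took in the transcription factors Foxm1 and Mybl2, the Polo kinase Plk1, separase (Espl1) and the proliferation marker Mki67, which fell by 0.90 to 1.17 on the log2 scale. In CGR8 at the same time 15 genes had fallen and 9 had risen, against 27.2% and 24.9% of all genes. Foxm1, Espl1 and Mki67 were lowest and the checkpoint gene Mad2l1, survivin (Birc5) and Cdk1 were highest. By 48 h the direction depended on the gene in both lines. In NIH/3T3, 21 were lower and 6 higher, against 25.6% and 26.7% of all genes. There were 6 lower and 6 higher in CGR8, against 15.6% and 12.2%. In CGR8 the totals called at 5 h and 48 h were thus no higher than over all genes. In bulk RNA, fewer cells in G2 and mitosis and less RNA of these genes per cell cannot be told apart.

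**Figure D1:**
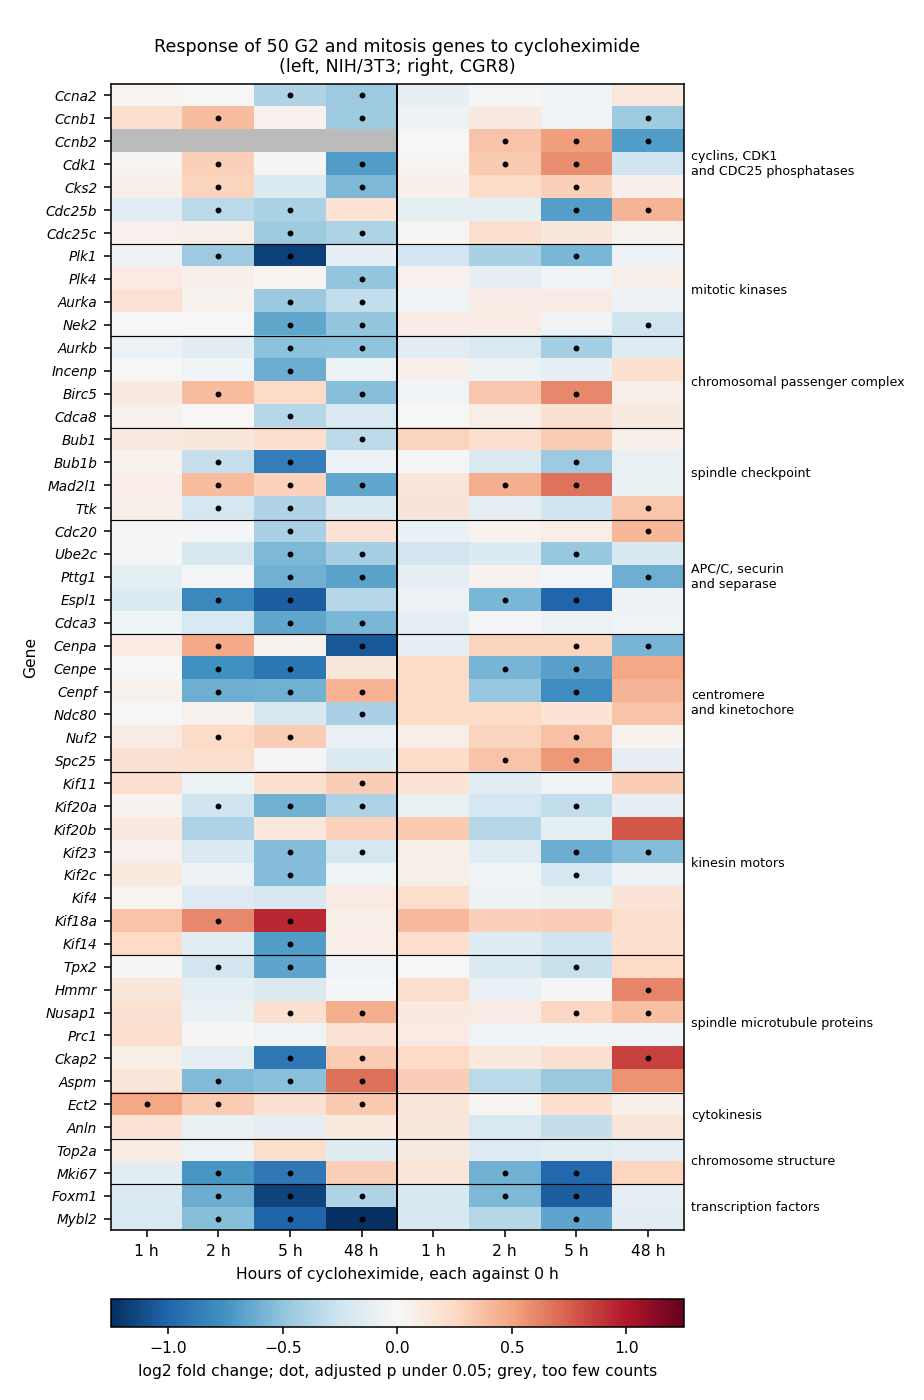
Log2 fold change of each of the 50 genes against 0 h (colour), at 1, 2, 5 and 48 h of cycloheximide in NIH/3T3 (left 4 columns) and CGR8 (right 4 columns), with genes grouped by role and a dot where the edgeR adjusted p was under 0.05. The 5 h column of NIH/3T3 has 28 dots on lower and 4 on higher genes. Ccnb2 is grey in NIH/3T3, where it had 0 to 18 counts per library.

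A gene was called where the adjusted p (edgeR quasi-likelihood F test, Benjamini-Hochberg over all genes tested) was under 0.05. In NIH/3T3 at 1 h, 1 of the 50 was called, against 0.732% of all genes tested. At 2 h it was 22 (9 higher, 13 lower), against 35.0% of all genes. At 5 h it was 32 (4 higher, 28 lower), against 51.0% of all genes, and the share of all genes called lower was 27.1%. At 48 h it was 27 (6 higher, 21 lower), against 52.3% of all genes, of which 25.6% lower. The median log2 fold change of the 50 was 0.06, -0.08, -0.40 and -0.18 at 1, 2, 5 and 48 h, against 0.02, -0.01, -0.01 and -0.01 over all genes. The total called was thus near the background at 48 h, and at 5 h the genes lay on the lower side more often than all genes did. With library size alone as scaling the splits were 6 higher and 15 lower at 2 h and 9 and 18 at 48 h, and with the trend over coding length removed 2 and 30 at 48 h. The 2 h count was 12 without NIH/3T3 0 h A, 14 without 2 h B and 13 without 2 h C.

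**Figure D2:**
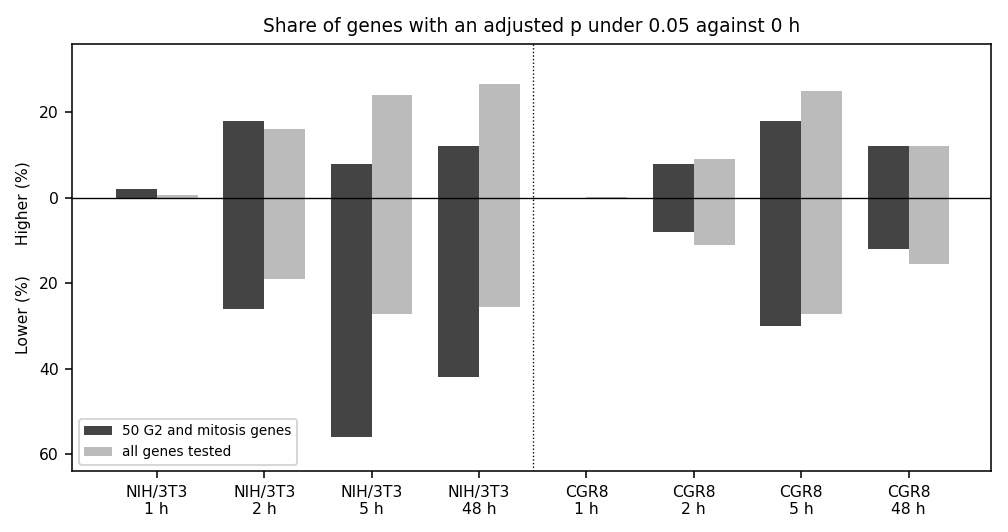
Share of genes called higher (above the line, percent) and lower (below the line, percent) against 0 h, for the 50 G2 and mitosis genes (dark bars) and for all genes tested (light bars), by line and time. The dark bar below the line is the longest at 5 h in NIH/3T3, where 28 of 50 genes were lower against 27.1% of all genes.

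In CGR8 at 1 h, 0 of the 50 were called by edgeR, against 0.270% of all genes, and 2 had an unadjusted p under 0.05. DESeq2 called 0 there and limma voom with sample weights 1. At 2 h, 8 were called (4 higher, 4 lower), against 19.9% of all genes. At 5 h, 24 were called (9 higher, 15 lower), against 52.1% of all genes, with 24.9% of all genes higher and 27.2% lower. At 48 h, 12 were called (6 higher, 6 lower), against 27.8%. The counts in CGR8 thus lay near or below the background at each time, and the medians of the 50 were 0.07, -0.05, -0.05 and 0.06, against 0.00, 0.01, -0.01 and 0.00 over all genes. With the trend over coding length removed, the split at 5 h turned to 17 higher and 12 lower and the median to 0.14. With library size alone it was 5 and 15 at 5 h, 5 and 3 at 2 h and 4 and 7 at 48 h, the median of all genes at 5 h moving from -0.01 to -0.12, and with RLE scaling it was 8 and 5 at 48 h. Leaving out CGR8 0 h A, 0 h C or 2 h C brought the 2 h count to 3, 4 and 3.

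Of all genes, 35.0%, 51.0% and 52.3% were called at 2, 5 and 48 h in NIH/3T3, and 19.9%, 52.1% and 27.8% in CGR8. The share of all genes called in both lines, or moving the same way, was not computed. The overlap among the 50 is therefore a description and not read as a result about them. Those of the 50 called in both lines moved the same way. At 5 h, 18 genes were called in both, which is 56.2% of the NIH/3T3 calls and 75% of the CGR8 calls. The 15 lower in both were Aurkb, Bub1b, Cdc25b, Cenpe, Cenpf, Espl1, Foxm1, Kif20a, Kif23, Kif2c, Mki67, Mybl2, Plk1, Tpx2 and Ube2c, and the 3 higher in both were Mad2l1, Nuf2 and Nusap1. With the trend over coding length removed, the CGR8 values of Bub1b, Cenpe, Kif20a, Kif2c and Tpx2 changed sign, and those of Plk1 and Cenpf lost their calls, as did Mad2l1 in NIH/3T3. At 2 h, Cenpe, Espl1, Foxm1 and Mki67 were lower and Cdk1 and Mad2l1 higher in both. The CGR8 calls of Cdk1, Cenpe and Mki67 were each lost without any one of 4 of the 6 libraries compared. At 48 h, Ccnb1, Cenpa, Kif23, Nek2 and Pttg1 were lower and Ckap2 and Nusap1 higher in both. The times within a line share their 0 h libraries, so values at 2, 5 and 48 h are given side by side and their likeness is not read as a result.

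The cyclins, CDK1 and CDC25 phosphatases comprise 7 genes, of which 3 were lower at 5 h (27.1% of all genes) and 5 at 48 h (25.6%) in NIH/3T3. In CGR8 3 were higher (24.9%) and 1 lower (27.2%) at 5 h. The percentages in brackets, here and for the roles below, are shares of all genes tested. A role holds few genes, so its counts are descriptions. Cyclin A2 (Ccna2) drives the passage from S phase into G2. In NIH/3T3 libraries A, B and C, Ccna2 stood at 243, 246 and 243 CPM at 0 h, 244, 241 and 262 at 1 h, 276, 232 and 228 at 2 h, 187, 188 and 187 at 5 h and 181, 178 and 176 at 48 h. In CGR8, Ccna2 stood at 262, 321 and 260.3 CPM at 0 h, 264, 262 and 262 at 1 h, 318, 262 and 256 at 2 h, 260.2, 291 and 272 at 5 h and 284, 311 and 326 at 48 h. All 5 h and 48 h libraries of NIH/3T3 lay below all of 0 h, with log2 fold changes of -0.38 (SE 0.080, edgeR adjusted p = 0.000855) and -0.45 (SE 0.080, edgeR adjusted p = 0.000197), while in CGR8 the groups overlapped and the 5 h value was -0.04. A 12.5% share of its exon bases overlaps Exosc9 on the other strand in GENCODE M21, so its counts are uncertain where the counting did not use strand.

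Cyclin B1 (Ccnb1) is the main partner of CDK1 in mitosis. In NIH/3T3, Ccnb1 stood at 176, 186 and 172 CPM at 0 h, 189, 183 and 239 at 1 h, 239, 227 and 229.6 at 2 h, 179.8, 191 and 184 at 5 h and 133, 129.7 and 129.8 at 48 h. In CGR8, Ccnb1 stood at 356, 407 and 366 CPM at 0 h, 339, 368 and 370.0 at 1 h, 437, 354 and 425 at 2 h, 331, 410.2 and 351 at 5 h and 271, 271 and 289 at 48 h. It rose at 2 h in NIH/3T3, by 0.38 (SE 0.091, edgeR adjusted p = 0.0049), and fell below every 0 h library at 48 h in both lines, with -0.44 (SE 0.091, edgeR adjusted p = 0.000766) in NIH/3T3 and -0.44 (SE 0.11, edgeR adjusted p = 0.00574) in CGR8. Cyclin B2 (Ccnb2), its relative at the Golgi, was nearly silent in NIH/3T3, with 0 to 18 counts in each of the 15 libraries against 1738 to 4613 in those of CGR8. In CGR8, Ccnb2 stood at 120.4, 133 and 115 CPM at 0 h, 115, 125 and 128 at 1 h, 155, 143 and 172 at 2 h, 185, 179 and 163 at 5 h and 76.6, 77.8 and 71.5 at 48 h. All its 2 h and 5 h libraries lay above 0 h and all 48 h libraries below, with changes of 0.36 (SE 0.097, edgeR adjusted p = 0.0199), 0.52 (SE 0.098, edgeR adjusted p = 0.000381) and -0.70 (SE 0.098, edgeR adjusted p = 7.34e-05). The 2 h call was lost without 0 h A, 0 h C or 2 h C.

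**Figure D3:**
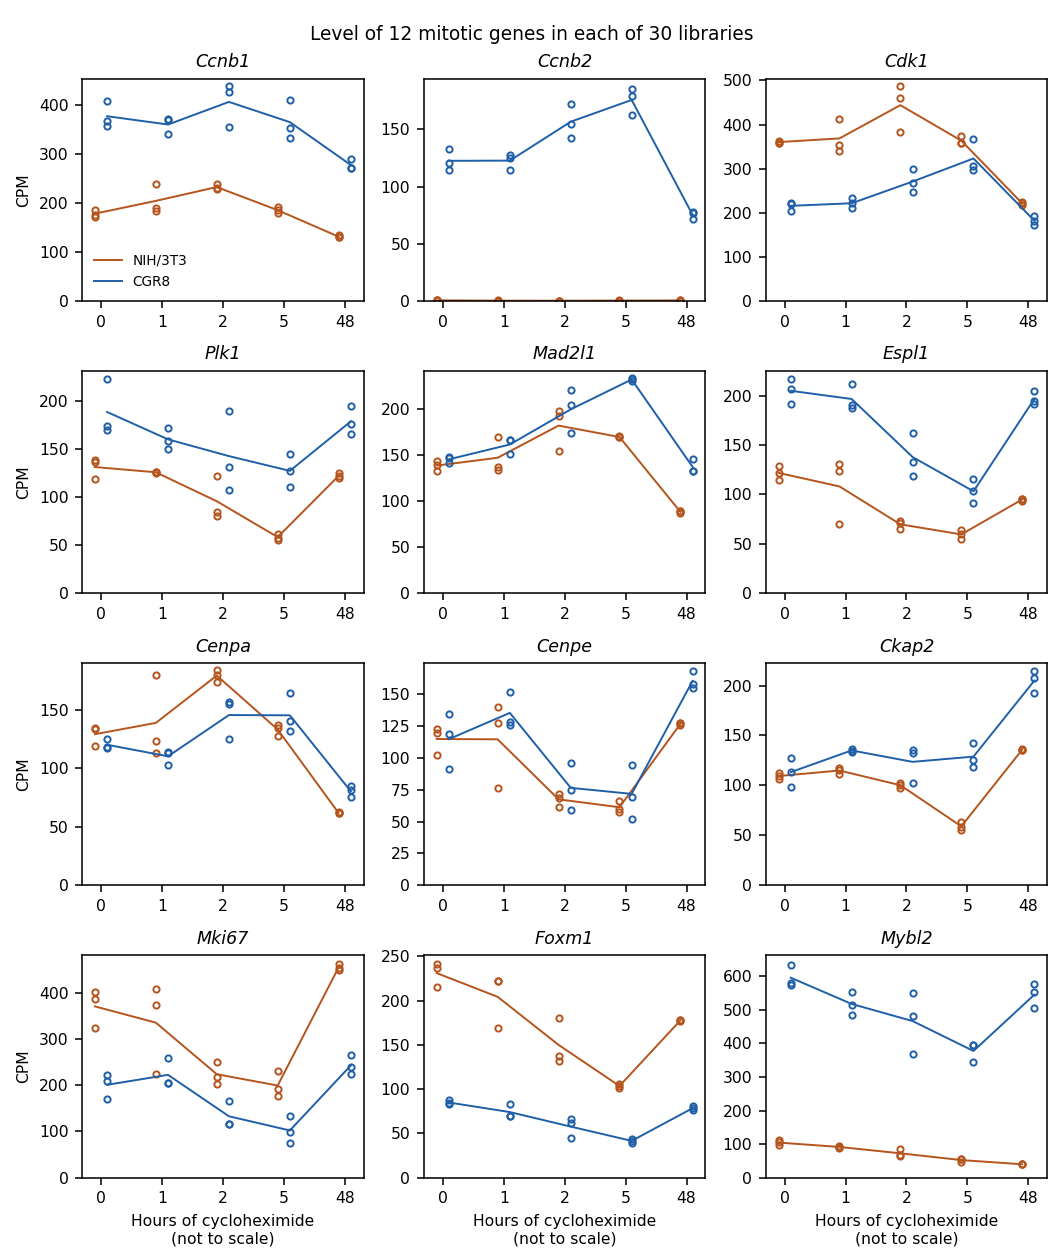
CPM (vertical axis, from 0) of 12 of the genes in each of the 30 libraries (points) and the mean of the 3 replicates (lines), by hours of cycloheximide (horizontal axis, evenly spaced and not to scale), NIH/3T3 in orange and CGR8 in blue. Espl1, Foxm1 and Mki67 were lowest at 5 h in both lines, and Mad2l1 was highest at 2 h in NIH/3T3 and at 5 h in CGR8.

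The kinase CDK1 (Cdk1) phosphorylates the proteins that carry a cell into mitosis. In NIH/3T3, Cdk1 stood at 358, 359 and 364 CPM at 0 h, 353, 339 and 413 at 1 h, 383, 461 and 488 at 2 h, 374, 359 and 357 at 5 h and 224, 222 and 218 at 48 h. In CGR8, Cdk1 stood at 205, 222 and 219.9 CPM at 0 h, 210.2, 233 and 221 at 1 h, 267, 247 and 299 at 2 h, 367, 305 and 298 at 5 h and 173, 192 and 181 at 48 h. It rose at 2 h in both lines, by 0.30 and 0.33, and at 5 h it was 0.01 in NIH/3T3 and 0.58 (SE 0.10, edgeR adjusted p = 0.000239) in CGR8. At 48 h it fell in NIH/3T3, with -0.70 (SE 0.094, edgeR adjusted p = 1.44e-05), where all libraries lay below 0 h, and stood -0.25 from 0 h in CGR8 without passing the test. Its subunit Cks2 fell at 48 h in NIH/3T3 (-0.56) and rose at 5 h in CGR8 (0.30), a rise that turned to -0.45 with the trend over coding length removed. The Cdk1 calls at 2 h were lost without 0 h A, 0 h B, 2 h B or 2 h C in NIH/3T3 and without 0 h A, 0 h B, 0 h C or 2 h C in CGR8. The Cks2 call in CGR8 was lost without any 0 h library or 5 h A.

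CDC25 phosphatases remove the inhibitory phosphates from CDK1. In NIH/3T3, Cdc25b stood at 107, 106 and 113 CPM at 0 h, 107, 102 and 86.8 at 1 h, 95.7, 79.2 and 83.2 at 2 h, 84.5, 83.3 and 81.1 at 5 h and 122, 124 and 125 at 48 h. In CGR8, Cdc25b stood at 21.9, 22.2 and 21.2 CPM at 0 h, 20.4, 20.3 and 19.2 at 1 h, 23.0, 19.8 and 17.2 at 2 h, 13.0, 13.6 and 13.8 at 5 h and 29.7, 28.6 and 29.0 at 48 h. It fell at 5 h in both lines, with -0.39 (SE 0.090, edgeR adjusted p = 0.00178) in NIH/3T3 and -0.69 (SE 0.11, edgeR adjusted p = 8.29e-05) in CGR8, with no overlap of 0 h and 5 h, and in CGR8 it rose above 0 h at 48 h (0.42, SE 0.11, edgeR adjusted p = 0.00708). Cdc25c fell in NIH/3T3 at 5 h (-0.45) and 48 h (-0.39) and was at 0.14 and 0.05 in CGR8.

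Of the 4 mitotic kinases outside the passenger complex, 3 were lower in NIH/3T3 at 5 h (27.1% of all genes) and 3 at 48 h (25.6%). In CGR8 it was 1 at each time (27.2% and 15.6%). Polo-like kinase 1 (Plk1) acts from mitotic entry to cytokinesis. In NIH/3T3, Plk1 stood at 136, 119 and 139 CPM at 0 h, 127, 125 and 126 at 1 h, 122, 80.9 and 84.6 at 2 h, 57.9, 55.6 and 61.8 at 5 h and 125, 119.6 and 122 at 48 h. In CGR8, Plk1 stood at 169, 223 and 174 CPM at 0 h, 172, 158 and 150.5 at 1 h, 190.1, 131 and 107 at 2 h, 127, 145 and 111 at 5 h and 166, 195 and 176 at 48 h. At 5 h every library lay below every 0 h library in both lines, with -1.17 (SE 0.12, edgeR adjusted p = 1.79e-06) in NIH/3T3, the largest fall of the 50 genes there, and -0.57 (SE 0.17, edgeR adjusted p = 0.0114) in CGR8, the latter at -0.38 and no longer called with the trend over coding length removed, and lost also without 0 h B. By 48 h it was -0.11 and -0.08 from 0 h, and neither passed the test.

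Aurora A (Aurka) matures the centrosomes and builds the spindle poles. In NIH/3T3, Aurka stood at 142, 133 and 149 CPM at 0 h, 152, 148 and 182 at 1 h, 170.3, 129.6 and 139 at 2 h, 104, 105 and 99.1 at 5 h and 114, 112 and 116 at 48 h. In CGR8, Aurka stood at 168, 205 and 172 CPM at 0 h, 172, 178 and 173 at 1 h, 245, 171 and 163 at 2 h, 206, 207 and 172 at 5 h and 158, 191 and 172 at 48 h. It fell in NIH/3T3 at 5 h, with -0.46 (SE 0.10, edgeR adjusted p = 0.00138), and at 48 h, with -0.31, with no overlap with 0 h, and was at 0.10 and -0.06 in CGR8. The centrosome kinase Nek2 loosens the link between centrosomes before mitosis. In NIH/3T3, Nek2 stood at 99.6, 95.3 and 95.6 CPM at 0 h, 98.2, 101 and 92.6 at 1 h, 97.1, 93.4 and 98.6 at 2 h, 65.4, 58.6 and 61.7 at 5 h and 71.6, 69.1 and 66.4 at 48 h. In CGR8, Nek2 stood at 126, 124 and 132 CPM at 0 h, 134, 138 and 134 at 1 h, 140.3, 145 and 124 at 2 h, 123, 128 and 122 at 5 h and 113, 103 and 105 at 48 h. It fell in NIH/3T3 at 5 h (-0.65, SE 0.074, edgeR adjusted p = 4.19e-06) and 48 h (-0.49) and in CGR8 at 48 h (-0.25). This CGR8 call was lost without any of 5 of the 6 libraries. The call of Aurka at 48 h was lost without 0 h C or 48 h B. Plk4, which starts centriole duplication, fell in NIH/3T3 at 48 h (-0.49).

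The chromosomal passenger complex corrects faulty attachments and guides cytokinesis. At 5 h, 3 of its 4 genes were lower in NIH/3T3 (27.1% of all genes), and in CGR8 1 was lower (27.2%) and 1 higher (24.9%). In NIH/3T3, its kinase Aurkb stood at 142, 138 and 145 CPM at 0 h, 133, 137 and 134 at 1 h, 131, 129.7 and 127 at 2 h, 104, 99.4 and 93.4 at 5 h and 97.3, 99.3 and 102 at 48 h. In CGR8, Aurkb stood at 78.7, 87.1 and 76.5 CPM at 0 h, 72.1, 74.4 and 75.3 at 1 h, 82.0, 67.4 and 62.6 at 2 h, 65.1, 60.9 and 54.7 at 5 h and 68.2, 76.8 and 72.3 at 48 h. It fell at 5 h in both lines, with -0.51 (SE 0.070, edgeR adjusted p = 2.04e-05) and -0.42 (SE 0.11, edgeR adjusted p = 0.00437), and stayed below 0 h at 48 h in NIH/3T3 (-0.50). Survivin (Birc5) went another way. In NIH/3T3, Birc5 stood at 248, 250.2 and 265 CPM at 0 h, 242, 233 and 348 at 1 h, 331, 335 and 338 at 2 h, 315, 299 and 295 at 5 h and 178, 171 and 179 at 48 h. In CGR8, Birc5 stood at 170.4, 188 and 175 CPM at 0 h, 167, 174 and 180.5 at 1 h, 248, 186 and 238 at 2 h, 307, 257 and 243 at 5 h and 174, 203 and 179 at 48 h. It rose in NIH/3T3 at 2 h (0.40, not called without 0 h A) and fell at 48 h (-0.53, SE 0.12, edgeR adjusted p = 0.00111), and in CGR8 it rose at 5 h (0.60, SE 0.12, edgeR adjusted p = 0.000584), a value of 0.10 with the trend over coding length removed that did not pass the test. The scaffold Incenp and borealin (Cdca8) fell in NIH/3T3 at 5 h, with -0.62 and -0.35, and were at -0.11 and 0.19 in CGR8.

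Among the 4 spindle checkpoint genes the directions were mixed at 5 h. In NIH/3T3 1 was higher and 2 lower (51.0% of all genes called, 27.1% lower). In CGR8 1 was higher (24.9%) and 1 lower (27.2%). MAD2 (Mad2l1) is the protein that locks CDC20 away from the APC/C. In NIH/3T3, Mad2l1 stood at 139.8, 144 and 132 CPM at 0 h, 134, 138 and 169.9 at 1 h, 155, 193 and 198 at 2 h, 169, 169.6 and 170.3 at 5 h and 89.1, 88.9 and 87.0 at 48 h. In CGR8, Mad2l1 stood at 141, 147 and 148 CPM at 0 h, 152, 167 and 166 at 1 h, 204, 174 and 221 at 2 h, 230.2, 232 and 234 at 5 h and 133, 132 and 146 at 48 h. It rose at 2 h in both lines (0.39 and 0.46) and at 5 h, by 0.29 (SE 0.10, edgeR adjusted p = 0.0242) in NIH/3T3 and 0.68 (SE 0.095, edgeR adjusted p = 3.42e-05) in CGR8, with every 5 h library above every 0 h library. With the trend over coding length removed, the 5 h values were 0.14, no longer called, and 0.40. The NIH/3T3 rise at 5 h lost its call without any one of 5 of the 6 libraries compared. At 48 h it fell below 0 h in NIH/3T3, with -0.65 (SE 0.10, edgeR adjusted p = 6.87e-05), and was at -0.08 in CGR8.

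Bub1 is the kinase that recruits the other checkpoint proteins to kinetochores. In NIH/3T3, Bub1 stood at 145, 156 and 137 CPM at 0 h, 173, 163 and 139 at 1 h, 126, 181 and 177 at 2 h, 167, 174 and 167 at 5 h and 115, 118 and 116 at 48 h. In CGR8, Bub1 stood at 168, 130.5 and 179.6 CPM at 0 h, 187, 195 and 195 at 1 h, 118, 205 and 225 at 2 h, 173, 181 and 240.4 at 5 h and 161, 160.0 and 177 at 48 h. It fell in NIH/3T3 at 48 h (-0.33, SE 0.12, edgeR adjusted p = 0.0258). This call was lost without any one of 5 of the 6 libraries compared. At 5 h it was at 0.21 and 0.31 without passing the test. BUBR1 (Bub1b), which sits with MAD2 in the inhibitory complex, fell at 5 h with -0.87 (SE 0.084, edgeR adjusted p = 8.77e-07) in NIH/3T3 and -0.46 (SE 0.086, edgeR adjusted p = 0.000407) in CGR8, the latter at 0.01 with the length trend removed. Ttk, the kinase that starts checkpoint signalling, fell at 5 h in NIH/3T3 (-0.38) and rose at 48 h in CGR8 (0.34). The latter call was lost without any one of the 6 libraries.

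All 5 genes of the APC/C, securin and separase group fell in NIH/3T3 at 5 h (27.1% of all genes). In CGR8 2 of the 5, Espl1 and Ube2c, fell (27.2%). Separase (Espl1) cuts the cohesin rings at anaphase. In NIH/3T3, Espl1 stood at 121, 115 and 129 CPM at 0 h, 130.5, 124 and 70.1 at 1 h, 72.7, 71.2 and 65.4 at 2 h, 54.8, 59.5 and 64.4 at 5 h and 95.6, 95.7 and 93.5 at 48 h. In CGR8, Espl1 stood at 217, 191 and 207 CPM at 0 h, 212, 188 and 191 at 1 h, 133, 162 and 119 at 2 h, 90.9, 103 and 116 at 5 h and 194, 192 and 204 at 48 h. Its 2 h and 5 h libraries lay below all 0 h libraries in both lines, with changes at 5 h of -1.03 (SE 0.16, edgeR adjusted p = 6.39e-05) and -0.99 (SE 0.12, edgeR adjusted p = 8.95e-06). With the trend over coding length removed the values were -0.73 and -0.31, both still called.

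Securin (Pttg1) holds separase inactive until anaphase. In NIH/3T3, Pttg1 stood at 62.3, 58.4 and 58.6 CPM at 0 h, 55.8, 49.1 and 60.6 at 1 h, 64.1, 54.6 and 57.2 at 2 h, 40.5, 36.7 and 41.3 at 5 h and 38.8, 36.4 and 37.4 at 48 h. In CGR8, Pttg1 stood at 18.8, 23.0 and 20.7 CPM at 0 h, 20.4, 19.6 and 18.1 at 1 h, 22.8, 19.4 and 21.9 at 2 h, 23.9, 21.0 and 16.8 at 5 h and 11.1, 16.0 and 13.8 at 48 h. It fell in NIH/3T3 at 5 h (-0.60, SE 0.093, edgeR adjusted p = 6.6e-05) and in both lines at 48 h (-0.67 and -0.61), with no overlap in these 3 comparisons. CDC20 (Cdc20) switches the APC/C on in anaphase. In NIH/3T3, Cdc20 stood at 324, 343 and 389.7 CPM at 0 h, 351, 338 and 377 at 1 h, 398, 306 and 342 at 2 h, 266, 265 and 265 at 5 h and 411, 386 and 405 at 48 h. In CGR8, Cdc20 stood at 338, 389 and 320.2 CPM at 0 h, 317, 334 and 338 at 1 h, 393, 337 and 352 at 2 h, 406, 371 and 322 at 5 h and 436, 490.3 and 469 at 48 h. Cdc20 fell in NIH/3T3 at 5 h (-0.41, SE 0.097, edgeR adjusted p = 0.00221), and in CGR8 it was at 0.07 at 5 h and rose at 48 h (0.41, SE 0.11, edgeR adjusted p = 0.00873). Ube2c, the ubiquitin-conjugating enzyme of the APC/C, fell at 5 h with -0.56 and -0.47, and the entry factor Cdca3 fell in NIH/3T3 at 5 h and 48 h with -0.65 and -0.57.

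The 6 centromere and kinetochore genes split by gene. At 5 h 1 rose and 2 fell in NIH/3T3 (51.0% of all genes called, 27.1% lower). In CGR8 3 rose (24.9%) and 2 fell (27.2%). Cenpa is the histone that marks the centromere. In NIH/3T3, Cenpa stood at 119, 133 and 135 CPM at 0 h, 123, 113 and 179.8 at 1 h, 179.9, 174 and 183 at 2 h, 134, 128 and 137 at 5 h and 61.6, 61.4 and 62.4 at 48 h. In CGR8, Cenpa stood at 118, 125 and 117 CPM at 0 h, 103, 114 and 113 at 1 h, 155, 125 and 157 at 2 h, 164, 140.0 and 131 at 5 h and 75.2, 84.4 and 81.3 at 48 h. It rose at 2 h in NIH/3T3 (0.47) and fell below every 0 h library at 48 h in both lines, with -1.06 (SE 0.13, edgeR adjusted p = 4.67e-06) and -0.58 (SE 0.11, edgeR adjusted p = 0.000922). Its rise of 0.27 at 5 h in CGR8 became -0.24 with the length trend removed and lost its call without 0 h A, 0 h C, 5 h A or 5 h B. The 2 h rise in NIH/3T3 was not called without 0 h A.

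The kinesin of the kinetochore, Cenpe, gathers chromosomes to the spindle equator. In NIH/3T3, Cenpe stood at 123, 119 and 102 CPM at 0 h, 127, 139.5 and 76.2 at 1 h, 61.7, 72.0 and 68.5 at 2 h, 57.5, 59.8 and 66.3 at 5 h and 127, 126 and 127 at 48 h. In CGR8, Cenpe stood at 118, 91.3 and 134 CPM at 0 h, 151, 128 and 126 at 1 h, 58.7, 96.0 and 74.4 at 2 h, 51.9, 69.0 and 94.1 at 5 h and 154, 158 and 168 at 48 h. It fell at 2 h and 5 h in both lines, at 5 h with -0.90 (SE 0.16, edgeR adjusted p = 0.000188) in NIH/3T3, without overlap, and with -0.68 (SE 0.20, edgeR adjusted p = 0.01) in CGR8, where 5 h C lay above 0 h B, and the value was 0.00 with the length trend removed. Cenpf, a large kinetochore and nuclear matrix protein, is among the longest of the 50. In NIH/3T3, Cenpf stood at 103, 109 and 96.1 CPM at 0 h, 121, 124 and 73.4 at 1 h, 57.4, 76.6 and 67.9 at 2 h, 63.1, 67.7 and 72.9 at 5 h and 135, 146 and 136 at 48 h. In CGR8, Cenpf stood at 147, 96.9 and 155 CPM at 0 h, 175, 148 and 148 at 1 h, 63.3, 133 and 90.2 at 2 h, 56.8, 72.3 and 103 at 5 h and 166, 176 and 195 at 48 h. It fell at 5 h with -0.60 (SE 0.15, edgeR adjusted p = 0.00373) and -0.78 (SE 0.24, edgeR adjusted p = 0.0132), and its rise at 48 h in NIH/3T3 (0.43) turned to -0.25 with the length trend removed and was not called without 0 h A, 0 h C or 48 h B. In CGR8 the 5 h calls of Cenpe and Cenpf were lost without 0 h C or 5 h A. The 2 h call of Cenpe there was lost without 0 h A, 0 h C, 2 h A or 2 h C.

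The NDC80 complex, with Ndc80, Nuf2 and Spc25, is the hook that binds spindle microtubules. In NIH/3T3, Nuf2 stood at 113, 124 and 114 CPM at 0 h, 120.0, 118 and 138 at 1 h, 121, 146 and 146 at 2 h, 142, 146 and 145 at 5 h and 112, 110.1 and 109 at 48 h. In CGR8, Nuf2 stood at 56.6, 53.9 and 64.8 CPM at 0 h, 60.0, 63.1 and 61.6 at 1 h, 63.0, 70.2 and 79.3 at 2 h, 72.7, 75.4 and 77.7 at 5 h and 56.5, 60.9 and 62.8 at 48 h. Nuf2 rose at 5 h in both lines, by 0.31 (SE 0.088, edgeR adjusted p = 0.0075) and 0.37 (SE 0.10, edgeR adjusted p = 0.00713), and every 5 h library lay above every 0 h library. In NIH/3T3, Ndc80 stood at 67.3, 73.6 and 65.1 CPM at 0 h, 69.5, 68.7 and 66.4 at 1 h, 49.2, 82.4 and 80.7 at 2 h, 61.3, 59.3 and 58.8 at 5 h and 54.5, 50.1 and 50.5 at 48 h. In CGR8, Ndc80 stood at 68.0, 59.3 and 75.6 CPM at 0 h, 75.9, 81.3 and 80.9 at 1 h, 66.6, 82.6 and 91.2 at 2 h, 80.7, 65.1 and 83.1 at 5 h and 79.5, 92.8 and 87.0 at 48 h. Ndc80 fell at 48 h in NIH/3T3 (-0.41, SE 0.14, edgeR adjusted p = 0.0199) and was at 0.35 in CGR8, where its groups did not overlap but the test was not passed. Spc25 rose in CGR8 at 2 h and 5 h (0.36 and 0.55). The Ndc80 call was lost without 0 h B, 48 h B or 48 h C, and that of Spc25 at 2 h without 0 h A, 0 h B or 2 h C.

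Of the 8 kinesin motors, 1 was higher and 4 lower at 5 h in NIH/3T3 (51.0% of all genes called, 27.1% lower). In CGR8 3 were lower (27.2%). Kif18a, which shortens the microtubules that hold chromosomes, had the largest rise of the 50 against 0 h in any comparison. In NIH/3T3, Kif18a stood at 43.0, 52.6 and 42.4 CPM at 0 h, 64.7, 66.7 and 45.2 at 1 h, 49.4, 85.9 and 73.0 at 2 h, 89.7, 88.0 and 86.9 at 5 h and 49.0, 46.7 and 49.5 at 48 h. In CGR8, Kif18a stood at 60.8, 41.4 and 63.4 CPM at 0 h, 69.6, 75.3 and 74.3 at 1 h, 45.5, 76.4 and 81.9 at 2 h, 61.0, 55.7 and 87.9 at 5 h and 64.0, 61.0 and 68.3 at 48 h. The NIH/3T3 rise was 0.94 (SE 0.17, edgeR adjusted p = 0.000214) at 5 h with no overlap, and in CGR8 the value of 0.30 did not pass the test.

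Kif20a and Kif23 act at the spindle midzone in cytokinesis. In NIH/3T3, Kif20a stood at 201, 204 and 206 CPM at 0 h, 210.4, 209.9 and 208 at 1 h, 177, 169 and 169 at 2 h, 134, 135 and 134 at 5 h and 161, 152 and 152 at 48 h. In CGR8, Kif20a stood at 254, 258 and 249 CPM at 0 h, 236, 234 and 244 at 1 h, 212, 234 and 208 at 2 h, 187, 198 and 231 at 5 h and 224, 244 and 243 at 48 h. It fell at 5 h in both lines, with -0.60 (SE 0.066, edgeR adjusted p = 3.01e-06) and -0.30, the latter at 0.07 with the length trend removed. A 29.3% share of its exon bases overlaps the APC/C gene Cdc23 on the other strand, the largest such share among the 50, so its counts are uncertain without strand. In NIH/3T3, Kif23 stood at 116, 119 and 113 CPM at 0 h, 121, 125 and 117 at 1 h, 105, 102 and 102 at 2 h, 82.0, 73.5 and 83.9 at 5 h and 100.0, 101 and 98.6 at 48 h. In CGR8, Kif23 stood at 131, 123 and 146 CPM at 0 h, 143, 143 and 137 at 1 h, 113, 130.1 and 119 at 2 h, 82.1, 82.0 and 95.9 at 5 h and 88.5, 96.4 and 90.8 at 48 h. Kif23 fell at 5 h and 48 h in both lines, at 5 h with -0.54 (SE 0.073, edgeR adjusted p = 1.78e-05) and -0.62 (SE 0.098, edgeR adjusted p = 8.76e-05). The Kif23 call at 48 h in NIH/3T3 was lost without 0 h B, 48 h A or 48 h C, and that of Kif20a at 5 h in CGR8 without 5 h A.

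Kif11 pushes the spindle poles apart. In NIH/3T3, Kif11 stood at 154, 167 and 145 CPM at 0 h, 188, 186 and 164 at 1 h, 121, 169 and 155 at 2 h, 177, 179 and 177 at 5 h and 196, 189 and 189 at 48 h. In CGR8, Kif11 stood at 244, 221 and 265 CPM at 0 h, 274, 270.1 and 275 at 1 h, 173, 251 and 236 at 2 h, 195, 222 and 284 at 5 h and 287, 299 and 318 at 48 h. It rose in NIH/3T3 at 48 h (0.30, SE 0.10, edgeR adjusted p = 0.0214). This call was lost without 0 h A, 0 h C or 48 h A. In CGR8 the 0 h and 5 h libraries overlapped (-0.06). Kif14, a motor of cytokinesis, and Kif2c, which takes microtubules apart at centromeres, fell at 5 h in NIH/3T3, with -0.70 and -0.54. Kif2c also fell in CGR8 (-0.22), which became 0.06 with the length trend removed and was not called without any one of 5 of the 6 libraries. Kif4, which rides on chromosome arms, and Kif20b, at the midzone, were not called against 0 h in either line.

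Among the 6 spindle microtubule proteins, 1 was higher and 3 lower at 5 h in NIH/3T3 (51.0% of all genes called, 27.1% lower). At 48 h 3 were higher in each line (26.7% of all genes in NIH/3T3 and 12.2% in CGR8). TPX2 activates Aurora A on the spindle. In NIH/3T3, Tpx2 stood at 338, 315 and 323 CPM at 0 h, 326, 340.4 and 319.9 at 1 h, 309, 261 and 265 at 2 h, 207, 197 and 214 at 5 h and 314, 317 and 315 at 48 h. In CGR8, Tpx2 stood at 218, 247 and 238 CPM at 0 h, 239, 234 and 226 at 1 h, 216, 222 and 188 at 2 h, 182, 196 and 199 at 5 h and 274, 289 and 272 at 48 h. It fell at 5 h in both lines, with -0.66 (SE 0.079, edgeR adjusted p = 6.33e-06) and -0.28, the latter at 0.01 with the length trend removed and not called without 0 h B or 5 h A. Ckap2 stabilises spindle microtubules. In NIH/3T3, Ckap2 stood at 112, 107 and 109 CPM at 0 h, 116, 112 and 117 at 1 h, 97.7, 102 and 101 at 2 h, 55.9, 63.2 and 58.1 at 5 h and 135, 136 and 136 at 48 h. In CGR8, Ckap2 stood at 114, 98.7 and 127 CPM at 0 h, 134, 137 and 134 at 1 h, 103, 132 and 136 at 2 h, 126, 119 and 142 at 5 h and 193, 214 and 208 at 48 h. Ckap2 fell in NIH/3T3 at 5 h, with -0.89 (SE 0.072, edgeR adjusted p = 1.68e-07), and rose at 48 h in both lines, by 0.31 (SE 0.071, edgeR adjusted p = 0.00156) and 0.86 (SE 0.12, edgeR adjusted p = 7.34e-05), with the 48 h libraries above every 0 h library.

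Nusap1 bundles microtubules near chromosomes. In NIH/3T3, Nusap1 stood at 83.0, 81.5 and 82.7 CPM at 0 h, 88.7, 92.2 and 102 at 1 h, 70.7, 85.7 and 77.3 at 2 h, 95.1, 95.2 and 94.5 at 5 h and 112, 112 and 115 at 48 h. In CGR8, Nusap1 stood at 110.4, 118 and 119 CPM at 0 h, 118, 129.8 and 127 at 1 h, 124, 122 and 128 at 2 h, 135, 140.5 and 141 at 5 h and 138, 153 and 159 at 48 h. It rose at 5 h and 48 h in both lines, at 48 h by 0.45 (SE 0.081, edgeR adjusted p = 0.000224) and 0.37 (SE 0.084, edgeR adjusted p = 0.00359); its 5 h rise in NIH/3T3 (0.20) lost its call without any one of the 6 libraries compared, and that in CGR8 without 0 h A. Aspm, at the spindle poles, has one of the longest coding sequences. In NIH/3T3, Aspm stood at 112, 132 and 102 CPM at 0 h, 150.4, 154 and 78.8 at 1 h, 70.0, 91.2 and 75.6 at 2 h, 72.5, 82.0 and 87.2 at 5 h and 181, 189 and 187 at 48 h. In CGR8, Aspm stood at 107, 70.8 and 103 CPM at 0 h, 126, 111 and 109.7 at 1 h, 46.8, 102 and 73.4 at 2 h, 45.8, 62.7 and 94.6 at 5 h and 130.4, 126 and 157 at 48 h. Aspm fell in NIH/3T3 at 5 h (-0.52, not called without 0 h A, 0 h B, 5 h A or 5 h B) and rose at 48 h (0.69, SE 0.18, edgeR adjusted p = 0.0052), which became -0.01 with the length trend removed.

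Hmmr links spindle microtubules at the poles. In NIH/3T3, Hmmr stood at 162, 192 and 163 CPM at 0 h, 199, 196 and 177 at 1 h, 119, 187 and 170.5 at 2 h, 151, 151 and 153 at 5 h and 168, 169 and 172 at 48 h. In CGR8, Hmmr stood at 120.0, 89.9 and 127 CPM at 0 h, 129.8, 132 and 129.9 at 1 h, 78.9, 121 and 118 at 2 h, 96.5, 86.9 and 147 at 5 h and 182, 159 and 171 at 48 h. It rose in CGR8 at 48 h (0.61, SE 0.19, edgeR adjusted p = 0.0239), with every 48 h library above every 0 h library. The call was lost without 0 h B, 48 h A or 48 h C. Hmmr was at -0.02 in NIH/3T3. Prc1, which bundles the midzone, was not called against 0 h in either line.

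Ect2 and Anln set up the contractile ring of cytokinesis. In NIH/3T3, Ect2 stood at 102, 124 and 95.2 CPM at 0 h, 148, 155 and 146 at 1 h, 117, 152 and 132 at 2 h, 116, 128 and 123 at 5 h and 136, 136 and 132 at 48 h. In CGR8, Ect2 stood at 207, 199.9 and 212 CPM at 0 h, 219, 229 and 239.8 at 1 h, 174, 221 and 233 at 2 h, 174, 238 and 298 at 5 h and 209, 202 and 235 at 48 h. Ect2 was the 1 gene of the 50 called at 1 h, in NIH/3T3, with 0.48 (SE 0.10, edgeR adjusted p = 0.0375), and it was higher there at 2 h (0.32) and 48 h (0.33) as well. The 1 h call was lost without 0 h A, 0 h C, 1 h A or 1 h B, and the 48 h call without 0 h A or 0 h C. In NIH/3T3, Anln stood at 492, 566 and 455 CPM at 0 h, 597, 609 and 496 at 1 h, 425, 523 and 479.8 at 2 h, 454, 466 and 479.9 at 5 h and 556, 552 and 536 at 48 h. In CGR8, Anln stood at 257, 232 and 261 CPM at 0 h, 275, 274 and 279.9 at 1 h, 184, 241 and 232 at 2 h, 158, 193 and 259 at 5 h and 292, 259 and 282 at 48 h. Anln was not called against 0 h at any time, with -0.11 and -0.30 at 5 h.

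Topoisomerase II alpha (Top2a) untangles sister chromatids, and Ki-67 (Mki67) coats mitotic chromosomes. In NIH/3T3, Top2a stood at 829, 895 and 772 CPM at 0 h, 929, 952 and 775 at 1 h, 663, 899 and 821 at 2 h, 944, 987 and 966 at 5 h and 750.0, 762 and 734 at 48 h. In CGR8, Top2a stood at 905, 799 and 991 CPM at 0 h, 961, 991 and 963 at 1 h, 611, 912 and 888 at 2 h, 713, 749.9 and 979.8 at 5 h and 810.5, 819 and 864 at 48 h. Top2a was not called against 0 h at any time, with 0.22 in NIH/3T3 and -0.14 in CGR8 at 5 h. In NIH/3T3, Mki67 stood at 401, 386 and 324 CPM at 0 h, 374, 408 and 224 at 1 h, 203, 251 and 217 at 2 h, 177, 191 and 229.6 at 5 h and 449, 461 and 454 at 48 h. In CGR8, Mki67 stood at 209.7, 169.8 and 223 CPM at 0 h, 258, 204 and 205 at 1 h, 116, 166 and 115 at 2 h, 74.5, 99.0 and 132 at 5 h and 224, 239 and 265 at 48 h. Mki67 fell at 2 h and 5 h in both lines, at 5 h with -0.90 (SE 0.17, edgeR adjusted p = 0.000344) and -0.98 (SE 0.19, edgeR adjusted p = 0.000503), or -0.61 and -0.26 with the length trend removed. The 2 h call in CGR8 was lost without 0 h A, 0 h C, 2 h A or 2 h C. At 48 h it stood 0.30 and 0.27 from 0 h, neither past the test.

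Both transcription factors of the group fell at 5 h in both lines (27.1% of all genes in NIH/3T3 and 27.2% in CGR8). FOXM1 drives most G2 and mitosis genes. In NIH/3T3, Foxm1 stood at 241, 216 and 237 CPM at 0 h, 222, 222 and 169.5 at 1 h, 180.4, 138 and 132 at 2 h, 103, 102 and 106 at 5 h and 177, 178 and 178 at 48 h. In CGR8, Foxm1 stood at 87.2, 83.4 and 84.0 CPM at 0 h, 83.0, 69.4 and 69.7 at 1 h, 65.8, 62.0 and 45.0 at 2 h, 38.7, 43.9 and 41.8 at 5 h and 78.4, 76.5 and 80.3 at 48 h. Every 2 h and 5 h library lay below every 0 h library in both lines, with -1.16 (SE 0.12, edgeR adjusted p = 1.37e-06) and -1.03 (SE 0.13, edgeR adjusted p = 1.02e-05) at 5 h. At 48 h it was still lower in NIH/3T3 (-0.38, SE 0.12, edgeR adjusted p = 0.0118) and stood at -0.11 in CGR8.

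B-MYB (Mybl2) joins the MuvB core and prepares the mitotic genes for FOXM1. In NIH/3T3, Mybl2 stood at 106, 95.7 and 112 CPM at 0 h, 92.3, 93.9 and 87.8 at 1 h, 86.4, 64.4 and 66.1 at 2 h, 54.4, 47.0 and 55.1 at 5 h and 39.4, 39.7 and 39.9 at 48 h. In CGR8, Mybl2 stood at 575, 633 and 580.3 CPM at 0 h, 553, 516 and 484 at 1 h, 551, 481 and 368 at 2 h, 395, 394 and 344 at 5 h and 578, 552 and 507 at 48 h. It fell in NIH/3T3 at 2 h (-0.53), 5 h (2.00-fold lower, edgeR adjusted p = 2.18e-06) and 48 h (-1.40, SE 0.11, edgeR adjusted p = 5.37e-08), the largest fall of the 50 at 48 h. In CGR8 it fell at 5 h (-0.66, SE 0.13, edgeR adjusted p = 0.000457) and was at -0.13 at 48 h.

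The lines were compared by an interaction, the response of CGR8 minus that of NIH/3T3. At 5 h, 19 of the 50 genes differed, all with the CGR8 value higher, against 13.3% of all genes, 8.18% higher and 5.09% lower. The median difference of the 50 was 0.32, against 0.13 over all genes. The largest was Ckap2 (1.16, SE 0.13, edgeR adjusted p = 9.33e-07), followed by Nek2 (0.70, SE 0.11, edgeR adjusted p = 4.52e-05), Plk1 (0.69, SE 0.22, edgeR adjusted p = 0.036) and Cdc25c (0.68, SE 0.13, edgeR adjusted p = 0.000976). Cdk1, Aurka, Cdca3, Pttg1, Spc25, Cdca8 and Incenp differed by 0.60 to 0.67, and the other 8, Bub1b, Tpx2, Ccna2, Kif2c, Cdc20, Mad2l1, Cks2 and Kif20a, by 0.38 to 0.57. Foxm1, Espl1 and Mki67, low in both lines at 5 h, gave 0.21, 0.13 and 0.00 and did not pass the test. The count was 10 with library size alone as scaling, which moved the median of all genes from 0.13 to -0.06, and it was 2 without CGR8 5 h A and 7 without CGR8 5 h B. With the trend over coding length removed, 12 of the 19 calls were kept and 7 were lost.

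**Figure D4:**
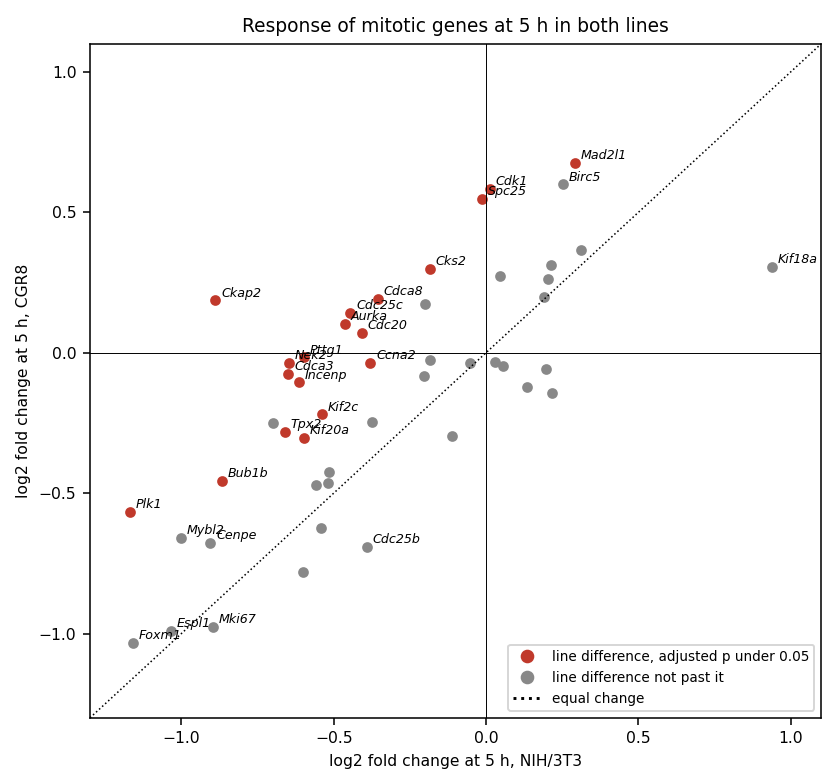
Log2 fold change at 5 h against 0 h in NIH/3T3 (horizontal axis) and CGR8 (vertical axis) for 49 of the genes, Ccnb2 left out for its low counts in NIH/3T3. Red points, 19 in all, had a line difference with an adjusted p under 0.05, and all lie above the dotted line of equal change.

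At 48 h, 12 genes differed between the lines, 11 with the CGR8 value higher and 1 lower, against 21.9% of all genes, 9.78% higher and 12.1% lower. The median of the 50 was 0.22, against -0.03 over all genes. Mybl2 differed most (1.25, SE 0.17, edgeR adjusted p = 3.51e-06), then Ndc80 (0.74, SE 0.20, edgeR adjusted p = 0.00652) and Cks2 (0.61, SE 0.15, edgeR adjusted p = 0.00283), and Kif23 was the 1 with a lower CGR8 value (-0.34, SE 0.11, edgeR adjusted p = 0.0296). This Kif23 call was lost in 9 of the 12 fits that leave out 1 library. The share of the 50 that differed was thus near that of all genes, and the count was 8 without CGR8 48 h B. At 1 h and 2 h, 0 genes differed by edgeR, against 0.160% and 2.02% of all genes, of which 0.0171% and 0.866% higher. An unadjusted p was under 0.05 for 0 genes at 1 h and 3 at 2 h, and DESeq2 and limma voom each called 0 at 1 h and 1 at 2 h.

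Between 5 h and 48 h, a comparison free of the 0 h libraries, 33 genes were called in NIH/3T3 (21 higher at 48 h, 12 lower), against 65.6% of all genes, 34.1% higher and 31.4% lower, and 31 in CGR8 (21 higher, 10 lower), against 57.5%, 28.9% higher and 28.6% lower. Both totals lay near the background. The highest at 48 h in NIH/3T3 were Aspm and Ckap2, both 1.20, and Mki67 (1.19), and in CGR8 Mki67 (1.25), Cenpf (1.21) and Cenpe (1.16). The lowest were Cenpa (-1.11) and Mad2l1 (-0.94) in NIH/3T3 and Ccnb2 (-1.22) and Cenpa (-0.85) in CGR8. Foxm1, Plk1 and Espl1 were higher at 48 h than at 5 h in both lines, by 0.78, 1.06 and 0.67 in NIH/3T3 and 0.92, 0.49 and 0.93 in CGR8. The Espl1 value in NIH/3T3 became -0.15 with the length trend removed. The Plk1 call in CGR8 was lost without 5 h A, 5 h C or 48 h B. With the length trend removed the splits turned to 15 higher and 19 lower in NIH/3T3 and 11 higher and 18 lower in CGR8.

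Untreated CGR8 and NIH/3T3 differed in 32 of the 50 genes (17 higher in CGR8, 15 lower), a share below the 79.1% of all genes that differed, 42.8% higher and 36.3% lower. On a scale common to both lines, Ccnb2 was at 120.4 ± 9.79 CPM (SD, n = 3) in CGR8 and 0.574 ± 0.0517 CPM in NIH/3T3, a log2 difference of 7.70 (SE 0.24, edgeR adjusted p = 2.03e-21). Mybl2 was at 586 ± 34.8 CPM and 106 ± 9.27 CPM, a difference of 2.47 (SE 0.12, edgeR adjusted p = 8.15e-17). The other way lay Cdc25b, at 21.4 ± 0.651 CPM in CGR8 and 110.4 ± 5.13 CPM in NIH/3T3 (-2.37, SE 0.097, edgeR adjusted p = 7.54e-19), Pttg1 (-1.57, SE 0.13, edgeR adjusted p = 4.96e-12) and Foxm1 (-1.49, SE 0.12, edgeR adjusted p = 7.12e-12). Under RLE scaling the split was 22 higher and 14 lower, and with the length trend removed it was 15 and 21.

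Coding length moved with these responses. The 10 genes with the shortest coding sequence, 0.237 to 0.978 kb, include Cks2, Cenpa, Birc5, Mad2l1 and Cdk1, and the 10 longest, 3.36 to 9.53 kb, include Espl1, Cenpe, Cenpf, Aspm and Mki67. In CGR8 at 5 h the 10 shortest had a median of 0.29 (6 higher, 1 lower) and the 10 longest -0.38 (0 higher, 4 lower). At 48 h in NIH/3T3 the order was the other way, with -0.57 (0 higher, 8 lower) for the shortest and 0.13 (2 higher, 0 lower) for the longest. Of all genes, 24.9% were higher and 27.2% lower in the former comparison, and 26.7% and 25.6% in the latter. Across the 50 genes, which share these libraries, the Spearman correlation of coding length with the log2 fold change was -0.66, -0.57 and 0.47 at 2, 5 and 48 h in CGR8, against -0.45, -0.43 and 0.17 over the 13050 genes with a length. In NIH/3T3 it was -0.50, -0.20 and 0.62, against -0.49, -0.30 and 0.30 over 11445 genes. For the line difference at 5 h it was -0.54, against -0.23 over 13882 genes. In that comparison 7 of the 10 shortest were called (median 0.60), all higher in CGR8, against 8.18% of all genes. Of the 10 longest, 0 were called there (median 0.07). With the trend removed, 30 of the 32 calls at 5 h in NIH/3T3 were kept and 14 of the 24 in CGR8, with 7 of the latter changing sign. Kept among these were Foxm1, Mybl2, Espl1, Mki67 and Ube2c on the lower side and Cdk1, Ccnb2, Nuf2 and Spc25 in CGR8 on the higher side.

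**Figure D5:**
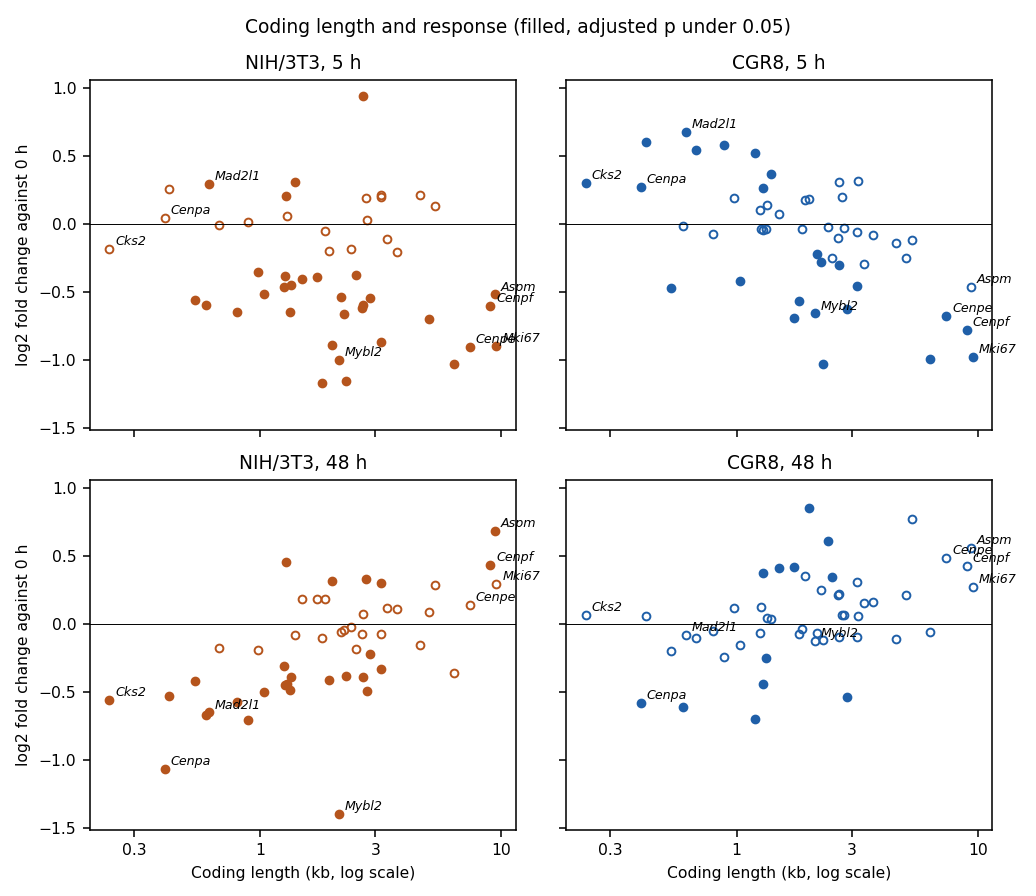
Log2 fold change against 0 h (vertical axis) by coding length in kb (horizontal axis, log scale) for the genes at 5 h (upper row) and 48 h (lower row) in NIH/3T3 (left) and CGR8 (right), filled where the adjusted p was under 0.05. In CGR8 at 5 h the short genes Cks2, Cenpa and Mad2l1 lie above 0 and the long genes Cenpe, Cenpf and Mki67 below it.

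The other genes of the cell cycle were read from further lists. Of all genes, 27.1% were lower at 5 h in NIH/3T3 and 27.2% in CGR8. The shares higher and lower at 48 h were 26.7% and 25.6% in NIH/3T3 and 12.2% and 15.6% in CGR8. Of 61 other cell division genes, 11 were higher and 28 lower at 5 h in NIH/3T3 (median -0.17) and 18 and 18 in CGR8 (median -0.05), totals of 63.9% and 59% against 51.0% and 52.1% of all genes. The G2 protein Gtse1 fell most in NIH/3T3 (-1.29, SE 0.10, edgeR adjusted p = 1.39e-07) and the cytokinesis kinase Cit in CGR8 (-0.97, SE 0.14, edgeR adjusted p = 4.41e-05), while the centromere gene Cenpk rose most in both (0.77 and 0.74). At 48 h, Psrc1, a spindle protein, rose most in both lines (0.91 and 1.12), and Pimreg, a mitotic regulator, fell most (-1.03 and -0.54), among 7 higher and 24 lower genes in NIH/3T3 and 7 and 7 in CGR8. The line difference was called for 14 of the 61 at 5 h, all higher in CGR8, and for 14 at 48 h, 11 higher and 3 lower, against 13.3% and 21.9% of all genes.

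Of the 15 APC/C subunits, 7 were higher and 4 lower at 5 h in NIH/3T3 (73.3% called, against 51.0% of all genes) and 7 higher and 3 lower in CGR8 (66.7%, against 52.1%). Anapc10, which helps bind substrates, rose most at 5 h in both lines (1.13 and 1.19), and the scaffold Anapc1 fell in CGR8 (-0.80). At 48 h the counts were 3 higher and 4 lower in NIH/3T3 and 1 and 1 in CGR8. Of the 11 matched genes in the list of DREAM and MuvB regulators, which includes Cdkn1a, 2 were higher and 6 lower at 5 h in NIH/3T3 (72.7%). In CGR8 it was 2 and 4 (54.5%). Rbl1, the p107 pocket protein, rose most in NIH/3T3 (0.66) and the CDK inhibitor Cdkn1a fell most (-0.91), and in CGR8 these were Rbbp4 (0.65) and E2f4 (-0.52). At 48 h, Rbl2, the p130 pocket protein, rose most in both lines (0.53 and 1.04), among 3 higher and 4 lower genes in NIH/3T3 and 2 and 1 in CGR8.

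DNA replication genes, 40 in number, serve the phase before G2. At 5 h, 9 were higher and 8 lower in NIH/3T3, a total of 42.5% that lay below the 51.0% of all genes, and 24 higher and 2 lower in CGR8, 65% against 52.1%. Ccne2, the cyclin of S phase entry, rose most in both lines (0.96 and 1.23). At 48 h, 0 were higher and 32 lower in NIH/3T3 (median -0.67), with the sliding clamp Pcna lowest (-1.25, SE 0.10, edgeR adjusted p = 5.35e-08), against 2 higher and 10 lower in CGR8. Of all genes, 52.3% and 27.8% were called at 48 h in these lines. The line difference was called for 25 at 5 h and 21 at 48 h, all with the CGR8 value higher, against 13.3% and 21.9% of all genes.

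Set beside the promoters, the 29 genes with TTTGAA held 16 called lower and 0 higher at 5 h in NIH/3T3 (median -0.41), and the 14 without it 5 lower and 4 higher (median 0.04). At 48 h in NIH/3T3 the order was the other way, with medians of -0.08 and -0.46. In CGR8 at 5 h the 29 held 8 lower and 4 higher (median -0.08) and the 14 without it 3 lower and 5 higher (median 0.12). Of all genes, 51.0% were called at 5 h in NIH/3T3 and 27.1% were lower. In CGR8 24.9% were higher and 27.2% lower at 5 h. The counts and medians are descriptions of genes that share their libraries and are not read as an effect of the motif. Espl1, Cdc20 and Ube2c, whose windows hold the motif, fell at 5 h in NIH/3T3, as did Mybl2, whose window holds neither motif. Cdk1, whose window also holds the motif, was not called there and rose at 5 h in CGR8, where Cdc20 was not called. Mad2l1, whose window holds neither motif, rose at 5 h in both lines.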

How the data were processed

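The deposited matrix holds whole-number counts per gene for 30 libraries; per the labels, the kit was a stranded one for mRNA with adapter ligation. The submitters' processing notes name STAR, DESeq2 and GRCm39; the counting tool, its use of strand and the annotation release are not given in the sources used here. Symbols, coding lengths (longest coding sequence) and overlaps came from GENCODE M21 on GRCm38, matched by identifier without version (51880 of 57186 gene rows, 90.7%). Counts were tested with the quasi-likelihood F test of edgeR 4.0.16 (R 4.3.3, TMM, filterByExpr with a minimum count of 10, Benjamini-Hochberg over all genes tested). Each line had its own fit, and both lines together had a fit for the 5 comparisons between lines, 15 comparisons in all. Each SE was derived from that test, as the absolute log2 fold change over the square root of F. A prior count of 2 entered only the log CPM used for the length trend and the replicate letters. The pipeline was tested on simulated data. Depth was 18.2 to 30.5 M counts.

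All 50 genes may be named. Values in every library are given for 22 genes listed by role and for the called genes with the 2 largest rises and falls in each comparison; of other genes, the called gene with the largest rise or fall in a list. The genes and lists were chosen with earlier results of these data known. Alternatives were RLE scaling, library size alone, DESeq2 1.42.0, limma 3.58.1 voom with sample weights, other filters, a fit of only the groups compared, a block on the replicate letter, each replicate left out and, added after the data were seen, removal of the coding length trend (lowess span 0.3). Lin54 was not matched. No pair of replicates agreed within sampling noise.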

Additional observations from a re-analysis of the deposited data

Results flagged for a closer look

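The response to cycloheximide differed between the lines, by the interaction test of edgeR with Benjamini-Hochberg adjustment over all genes, in 19 of the 50 genes at 5 h and in 12 at 48 h, against 13.3% and 21.9% of all genes tested, so that the share at 48 h was near that of all genes. At 5 h the CGR8 minus NIH/3T3 difference in log2 fold change was 1.16 for Ckap2, 0.70 for Nek2, 0.69 for Plk1, 0.68 for Cdc25c and 0.67 for Pttg1. It was 0.66 for Aurka, for Cdca3 and for Cdk1, 0.65 for Spc25, 0.63 for Cdca8 and 0.60 for Incenp. It was 0.57 for Cdc20 and for Cks2, 0.50 for Bub1b, 0.47 for Tpx2 and for Mad2l1, 0.43 for Ccna2, 0.41 for Kif2c and 0.38 for Kif20a. Without CGR8 5 h A, 17 of the 19 calls were lost and 2 kept, and without CGR8 5 h B 12 were lost and 7 kept. Removal of the trend over coding length kept 12 of the 19 and lost 7. The Plk1 difference lost its call in 9 of the 12 fits that leave out 1 library.

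At 48 h the difference was 1.25 for Mybl2, 0.74 for Ndc80, 0.61 for Cks2, 0.57 for Birc5, 0.56 for Ccna2 and 0.55 for Mad2l1. It was 0.53 for Ckap2, 0.51 for Ttk, 0.50 for Cdca3, 0.44 for Cdk1 and 0.42 for Cdc25c, and it was -0.34 for Kif23. Ckap2, Ccna2, Cdca3, Cdc25c, Cdk1, Cks2 and Mad2l1 differed at both times.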

How the results depend on the processing

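Of 3981 values of 253 called results under the alternatives, 3540 (88.9%) kept direction and call, 419 kept direction and lost the call, and 22 changed sign, all with the coding length trend removed. Those log2 values were -0.079 for Cks2 at 2 h in NIH/3T3; at 48 h there -0.012 for Aspm and -0.25 for Cenpf; and for 48 h against 5 h there -0.13 for Kif23, -0.18 for Ttk, 0.13 for Cks2, -0.15 for Espl1, -0.20 for Kif20a and -0.29 for Kif4. In CGR8 at 5 h they were 0.0051 for Bub1b, 0.0059 for Tpx2, 0.0047 for Cenpe, 0.060 for Kif2c, -0.24 for Cenpa, -0.45 for Cks2 and 0.069 for Kif20a, and for 48 h against 5 h -0.27 for Kif14, -0.17 for Bub1b, -0.10 for Anln, 0.081 for Birc5, -0.11 for Incenp and -0.15 for Kif11. The median over the 50 genes changed sign in the same setting, to 0.03 at 2 h in NIH/3T3, to 0.09 at 2 h and 0.14 at 5 h in CGR8, to -0.11 for 48 h against 5 h in CGR8 and to -0.11 for untreated cells. The cause was not tested.

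The count of genes called at 1 h in NIH/3T3, 1, was 0 with library size alone, 13 with limma voom and 0 with only the groups compared. In CGR8 it moved from 0 to 1 at 1 h with limma voom, from 8 at 2 h to 14 with limma voom, 4 without the length trend and 1 with only the groups compared, and from 12 at 48 h to 21 with limma voom and 19 with only the groups compared. The count of line differences moved at 2 h from 0 to 1 with DESeq2, with limma voom and with no filter, at 5 h from 19 to 10 with library size alone, and at 48 h from 12 to 28 with limma voom, 23 without the length trend and 23 with only the groups compared. Leaving out 1 replicate gave 0 to 1, 12 to 24, 29 to 31 and 23 to 26 genes at 1, 2, 5 and 48 h in NIH/3T3, and 0, 3 to 12, 19 to 26 and 9 to 11 in CGR8. It gave 30 to 32 and 23 to 28 for 48 h against 5 h in NIH/3T3 and CGR8, 0, 0 to 1, 2 to 22 and 8 to 15 for the line difference, and 28 to 32 for untreated cells. The 8 came without CGR8 48 h B, and the 12 at 2 h in CGR8 without 2 h B.

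The replicate letters did not pair the samples: correlations of same-lettered deviations ran from -0.244 to 0.245 in NIH/3T3 and from -0.523 to 0.373 in CGR8. With the letter as a block, 249 of the 253 calls were kept, and the counts were 1, 22, 32 and 28 in NIH/3T3, 0, 7, 23 and 13 in CGR8, 34 and 30 for 48 h against 5 h, 0, 0, 20 and 14 for the line difference and 32 for untreated cells. Depth limits Ccnb2 in NIH/3T3, at 0 to 18 counts per library.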
